A study of Mus musculus with 2 samples.

Results

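The miR-143/miR-145 and miR-199/miR-214 microRNAs, which are abundant in mesenchymal cells, were followed in small RNA libraries of fetal mouse testes with and without Hsp90α. They are encoded by 6 of the 2201 microRNA hairpin genes in the annotation: Mir143, Mir145a, Mir199a-1, Mir199a-2, Mir199b and Mir214. A read was assigned to them if it had at least 16 nt and lay, without mismatch and on the sense strand, inside the transcript of one of these hairpins. In all, 183 distinct sequences met this rule, of 9259 sequences that lay in any hairpin, and 117 of the 183 were seen in both libraries. The libraries, labelled WT and Hsp90-alpha KO and called WT and KO here, were made from whole testes of C57BL/6 embryos obtained by natural mating, at embryonic day 16.5. Each was 1 library from 20 pooled testes, so that the genotypes were compared without replicates. Every interval and exact test below therefore describes the sampling of reads in these 2 libraries and not the spread between animals. HSP90α is a chaperone, and the study asked what its loss does to small RNAs in the fetal germ line; the samples also hold all somatic cells of the testis.

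MicroRNAs are cut from a hairpin precursor in successive steps, first by DROSHA in the nucleus and then by DICER in the cytoplasm, which leaves a short duplex. One strand of the duplex, the guide, is kept by an Argonaute protein and the other is mostly degraded; the strand from the 5′ side of the hairpin is called 5p and that from the 3′ side 3p. Bases 2 to 8 of the kept strand, the seed, select the target RNAs, so that the position of the 5′ end matters for function. miR-143 and miR-145 are transcribed together and are known for their high level in smooth muscle, and miR-199a and miR-214 are known from fibroblasts and other mesenchymal cells.

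The sequences of the miR-199 and miR-214 products are shown because the largest difference between the libraries separated the strands of the miR-199 hairpins. They were taken from RefSeq (GRCm38.p6), in which 4 of the 6 genes were matched, and the seed is in capitals.
miR-199a-5p: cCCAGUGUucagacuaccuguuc
miR-199a-3p and miR-199b-3p: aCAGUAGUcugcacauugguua
miR-214-5p: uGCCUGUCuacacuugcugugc
miR-214-3p: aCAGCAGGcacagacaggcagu
The 5p sequence of 23 nt was the same in Mir199a-1 and Mir199a-2, where it lay at chr9:21496537-21496559 on the minus strand and at chr1:162217844-162217866 on the plus strand. The 3p sequence of 22 nt was the same in all 3 miR-199 genes, with the Mir199b copy at chr2:32318524-32318545 on the plus strand. The miR-214 strands lay at chr1:162223397-162223418 and chr1:162223438-162223459, both on the plus strand. None of the 4 seeds was shared by 2 of these sequences.

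The miR-199 and miR-214 hairpins lay within the dynamin genes. Mir199a-2 (chr1:162217814-162217923) and Mir214 (chr1:162223368-162223477) were 5444 bases apart, both inside an exon of Dnm3os and opposite to an intron of Dnm3, which encodes dynamin 3. Mir199a-1 (chr9:21496495-21496564, minus strand) lay opposite to an intron of Dnm2, and Mir199b (chr2:32318460-32318569, plus strand) opposite to an intron of Dnm1. The coordinates are those of GRCm38.

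The WT library held 6409305 reads and the KO library 5589326. Of these, 2523084 WT reads (39.4%) and 2561491 KO reads (45.8%) lay in a microRNA hairpin, and levels are given as reads per 1000000 of these hairpin reads (RPM). At this depth the smallest level that 3 reads give was 1.19 RPM in WT and 1.17 RPM in KO. Because the share of hairpin reads differed, scaling to all reads of the library would raise every KO/WT ratio by 0.22 on the log2 scale. That total also counts PIWI-interacting RNAs, which the paper reports as reduced in KO after scaling to microRNA reads. Their part in the differing share of hairpin reads was not tested. Fragments of the deleted gene's own mRNA, Hsp90aa1, were rare, with 22 WT and 37 KO sense reads. They were thus not fewer in the KO library, and they do not check the labels, since the sources used here do not say which RNA the mutant allele still makes.

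Together the 6 hairpins gave 155353 reads in WT and 160821 in KO, or 6.16% (95% Wilson interval 6.13 to 6.19%) and 6.28% (6.25 to 6.31%) of the hairpin reads. The KO/WT ratio of their summed level was 1.02 (95% Clopper-Pearson interval 1.01 to 1.03, exact binomial p = 4.35e-08), and it was 1.0003 when reads with untemplated 3′ bases were also counted and 1.005 when Mir10b was left out of the total. It was 1.19 per 1000000 reads of the whole library, 1.07 by median of ratios and 1.06 by TMM. The sum hid opposite differences of its most abundant products. miR-143-3p made up 57.6% of the members' reads in WT and 45.8% in KO, whereas miR-199a-5p made up 27.9% in WT and 40.3% in KO. Without miR-199a-5p the ratio of the remaining products was 0.844 (0.837 to 0.852).

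A ratio of 0.8 or less was taken as lower in KO, and the inverse of 0.8 or more, 0.32 on the log2 scale, as higher, each as a fold threshold without a test. Of the 8 products with at least 100 reads, miR-199a-5p alone was past the upper threshold and none was past the lower. Over the 327 arms of all hairpins with at least 100 reads, 5.81% were higher and 17.7% were lower by this measure. Per 1000000 reads of the whole library 79 arms were higher and 32 lower, in place of 19 and 58, and among arms of hairpins named Mir alone 10.2% were lower. The median log2 ratio of the members' products was -0.06, against -0.05 for all 327 arms. In 116 arms with at least 1000 reads, the ratios from the 5th to the 95th percentile ran from 0.809 to 1.22. For the 109 arms among them of hairpins named Mir, they ran from 0.832 to 1.22, and miR-143-3p, at 0.811, lay below this range.

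**Figure D1:**
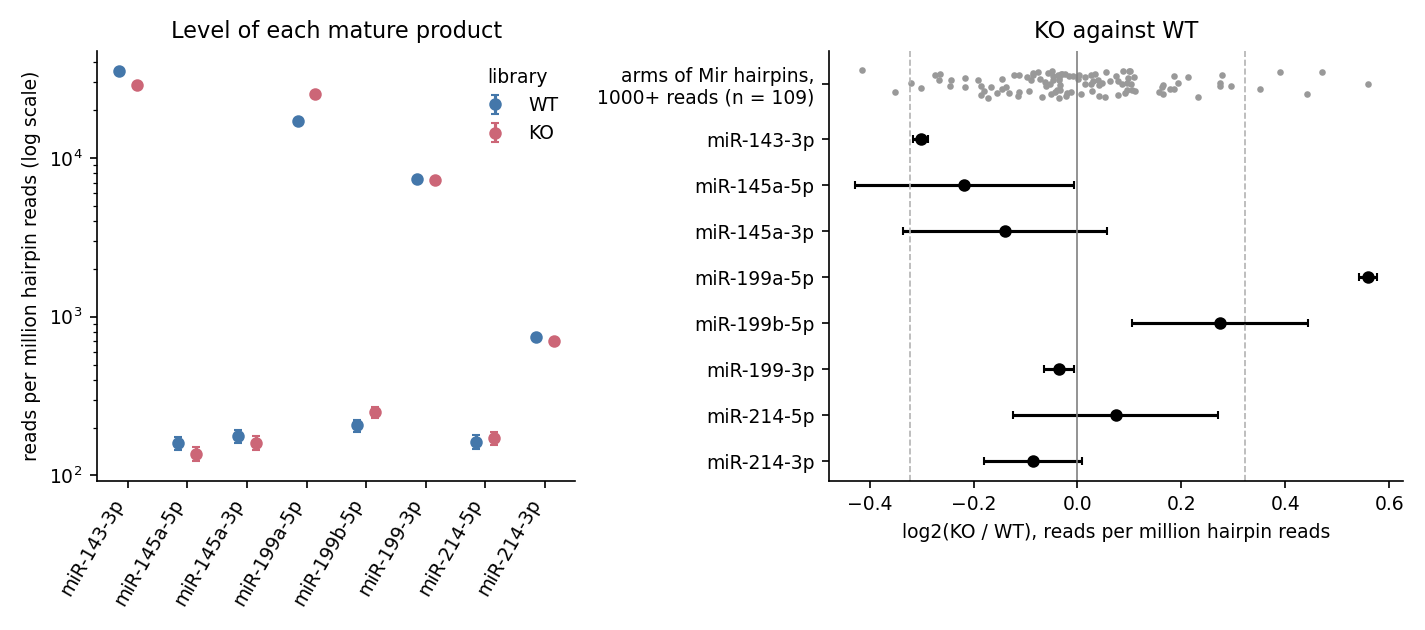
Left, level of the 8 mature products in the WT and KO libraries, in reads per 1000000 hairpin reads on a log axis, with 95% Poisson intervals; right, log2 KO/WT ratio with 95% Clopper-Pearson intervals, under a row of grey points for the 109 arms with at least 1000 reads whose gene name begins with Mir, dashed lines at the fold threshold, -0.32 and 0.32. miR-199a-5p, at 1.47, sits beyond the upper line and miR-143-3p, at 0.811, just inside the lower one; miR-199-3p, just below 0, lies above it with the whole-library, median-of-ratios and TMM scalings.

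miR-143-3p, the guide strand of Mir143, was the most abundant product of the group. It had 89523 reads in WT and 73733 in KO, or 35482 and 28785 RPM, a KO/WT ratio of 0.811 (0.803 to 0.819). From the highest ratio it ranked 110 among the 116 arms with at least 1000 reads, and it stayed below 1 with every scaling tried, up to 0.944 per 1000000 reads of the whole library. The difference ran through its sequence variants: all 7 sequences with at least 100 reads were lower in KO, with ratios of 0.604 to 0.849. Its passenger strand, miR-143-5p, was nearly absent, with 10 reads in WT and 3 in KO.

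miR-145a, which is encoded beside miR-143, was far rarer in read number, and both of its strands were found at similar levels. The miR-145a-5p strand, known as a regulator of the smooth muscle phenotype, had 402 and 351 reads, or 159 RPM in WT and 137 RPM in KO. Its ratio of 0.860 (0.743 to 0.995) did not pass the test over all 327 arms (exact binomial, adjusted p = 0.105), and per 1000000 reads of the whole library it was 1.001. The miR-145a-3p strand had 446 and 411 reads, or 177 and 160 RPM, a ratio of 0.908 (0.792 to 1.04) that was 1.06 with the whole-library scaling. The ratio of miR-143-3p divided by that of miR-145a-5p was 0.943 (0.817 to 1.09; Fisher's exact test, adjusted p = 0.475 over 28 pairs), and divided by that of miR-145a-3p it was 0.894 (0.781 to 1.02; adjusted p = 0.165).

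In GRCm38, Mir143 (chr18:61649196-61649258) and Mir145a (chr18:61647825-61647894) were on the minus strand with 1301 bases between them, and neither overlapped another annotated gene. The long non-coding RNA Carmn lay upstream of them on the same strand (chr18:61649625-61665537), and it gave 2 sense reads in WT and 1 in KO.

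The miR-199 hairpins showed the largest difference of the group. miR-199a-5p had 43349 reads in WT and 64821 in KO, or 17181 and 25306 RPM. Its ratio of 1.47 (1.46 to 1.49) was the highest of the 116 arms with at least 1000 reads and the 4th highest of all 327. The next in order among the 116 were the 5p arm of Mir470, at 1.39 (1.31 to 1.47), and the 3p arm of Mir295, at 1.36 (1.253 to 1.47). The ratio of miR-199a-5p lay between 1.44 and 1.71 with each other scaling, length limit or read selection, apart from counting each distinct sequence once, which gave 1.30 from 20 WT and 22 KO sequences. All 7 sequences of miR-199a-5p with at least 100 reads had a ratio above 1, from 1.08 to 1.65. The interval of the lowest, 0.870 to 1.35, took in 1.

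The 3p strand, counted over all miR-199 hairpins together, did not share this difference. miR-199-3p, the strand that is identical in miR-199a and miR-199b, had 18703 reads in WT and 18521 in KO, or 7413 and 7231 RPM. Of these, 18653 and 18476 lay in Mir199a-1, Mir199a-2 and Mir199b alike. The 3p reads of the miR-199a genes were thus not counted apart from those of Mir199b, and a difference between strands was not separated from one between genes. The ratio of miR-199-3p was 0.975 (0.956 to 0.995, exact binomial, adjusted p = 0.0475). However, it was 1.01 with the TMM scaling of edgeR, 1.03 with a median-of-ratios scaling and 1.14 per 1000000 reads of the whole library. The ratio of miR-199a-5p was 1.51 times (1.47 to 1.55) that of miR-199-3p, and this quotient does not depend on the scaling. The 5p share of the miR-199 hairpins was 70.1% (69.8 to 70.5%) in WT and 77.9% (77.7 to 78.2%) in KO (Fisher's exact test, p = 6.57e-253), or 2.35 and 3.53 reads of 5p for each read of 3p. This difference was one of read numbers: with each distinct sequence counted once the 5p share was 56.6% in WT and 53.7% in KO.

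The other hairpins with both strands measurable gave a scale for this shift. In 36 hairpins or hairpin groups with at least 200 reads of each arm, the log2 ratio of the 5p arm minus that of the 3p arm was largest in miR-199, at 0.59 (0.56 to 0.63). In the other 35 it had a median of 0.05 and an SD of 0.253, and ranged from -0.56 to 0.39. In 9 of the 35 the arms differed by more than the fold threshold, 4 towards 5p and 5 towards 3p, so that unequal change of the arms was found elsewhere too. The 5p share of Mir145a was 47.4% (44.1 to 50.8%) in WT and 46.1% (42.6 to 49.6%) in KO (Fisher's exact test, p = 0.617), and that of Mir214 was 17.9% and 19.6% (p = 0.148).

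**Figure D2:**
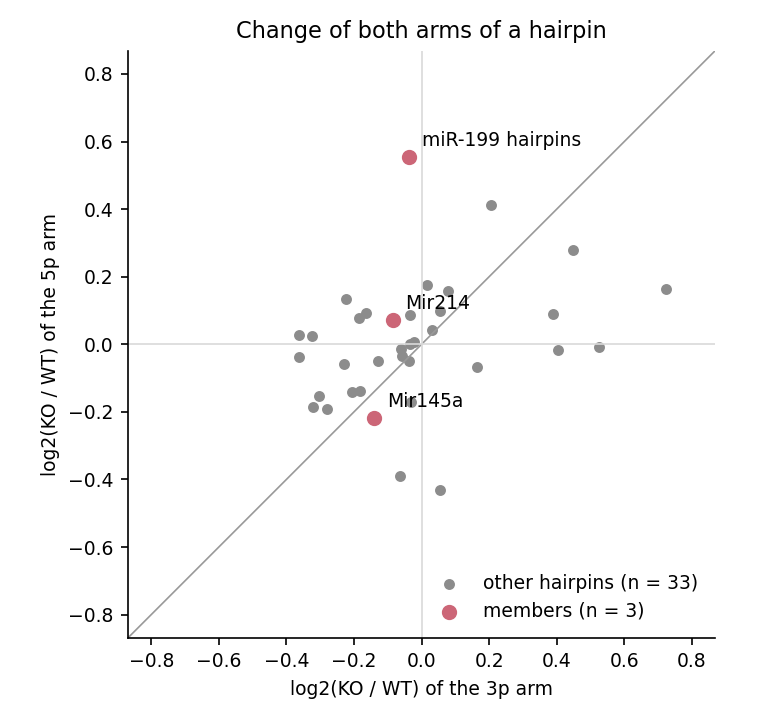
Log2 KO/WT ratio of the 5p arm against that of the 3p arm in 36 hairpins or hairpin groups with at least 200 reads of each arm; the diagonal marks equal change. The miR-199 hairpins lie farthest above the diagonal, at 0.56 for 5p and -0.04 for 3p, while Mir145a and Mir214 lie near it; a change of scaling moves all points along the diagonal.

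The reads could not tell which miR-199a gene they came from. Of the miR-199a-5p reads, 43345 in WT and 64811 in KO lay in both Mir199a-1 and Mir199a-2. Reads with an end that fits 1 gene only numbered 5 and 9 for the 5p side of Mir199a-2 and 0 and 1 for that of Mir199a-1. On the 3p side, 58 WT and 52 KO reads were particular to Mir199a-2. With shared reads divided equally, Mir199a-1 and Mir199a-2 both had a ratio of 1.36, which follows from the division and does not show that both loci changed. By gene and with the same division, the ratio was 0.811 for Mir143, 0.882 (0.799 to 0.974) for Mir145a, 0.994 (0.961 to 1.03) for Mir199b and 0.963 (0.909 to 1.02) for Mir214. The last 3 were 1.03, 1.16 and 1.12 with the whole-library scaling. Mir199b was also above 1, at 1.003 to 1.05, with reads of 20 to 23 nt as the total, TMM and median of ratios. Median of ratios gave 1.01 for Mir214. These Mir199b values follow from the division too, since most of the reads given to Mir199b were 3p reads shared by all miR-199 genes. Reads in Mir199b alone, 521 in WT and 640 in KO and all of the 5p side, gave 1.21 (1.08 to 1.36).

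miR-199b-5p can be counted by itself, because it differs from miR-199a-5p at position 10 from the 5′ end. It had 521 reads in WT and 640 in KO, or 206 and 250 RPM, a ratio of 1.21 (1.08 to 1.36; exact binomial, adjusted p = 0.00495). This was lower than the ratio of miR-199a-5p by a factor of 1.22 (1.08 to 1.37; Fisher's exact test, adjusted p = 0.00205 over 28 pairs). miR-199b-5p made up 1.19% (1.09 to 1.29%) of the miR-199 5p reads in WT and 0.978% (0.905 to 1.06%) in KO. A 1-base difference can also be a sequencing error, so the count was set against all other internal changes of the 23-nt miR-199a-5p sequence. The miR-199b-5p variant had 431 and 530 reads, whereas the 65 other variants had a median of 2 and 5 reads and at most 53 and 31.

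miR-214, which shares the Dnm3os transcript with Mir199a-2, differed little between the libraries. miR-214-3p, its more abundant strand, had 1886 reads in WT and 1804 in KO, or 747 and 704 RPM, a ratio of 0.942 (0.883 to 1.01; exact binomial, adjusted p = 0.166) that was 1.097 with the whole-library scaling. miR-214-5p had 411 and 439 reads, or 163 and 171 RPM, a ratio of 1.05 (0.918 to 1.21; adjusted p = 0.642). The ratio of miR-199-3p was 1.04 times (0.968 to 1.11) that of miR-214-3p, and the ratio of miR-199a-5p was 1.56 times (1.46 to 1.67) that of miR-214-3p. Dnm3os itself, outside the hairpins, gave 328 sense reads in WT and 317 in KO.

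Among the 28 pairs of the 8 products, the ratios of 15 pairs differed by more than the sampling of reads (Fisher's exact test, Benjamini-Hochberg adjusted p below 0.05). They comprised all 7 pairs with miR-199a-5p and 5 of the 7 pairs with miR-143-3p, the pair of these 2 products being counted in both. Of the 15 pairs without either product, 4 differed, each with miR-199b-5p as a partner. The pairs of miR-143-3p with the miR-145a strands did not pass the test.

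The 5′ ends set the seeds and were nearly the same in both libraries. miR-199a-5p, miR-199b-5p, miR-143-3p and miR-145a-5p had 1 dominant 5′ end, with 98.9% to 100% of the reads in either library. The 3p strands of miR-199 and miR-214 did not. In miR-199-3p the most frequent end held 78.1% of the WT and 77.2% of the KO reads, with 11.6% and 11.9% starting 1 base upstream and 10.1% and 10.8% starting 1 base downstream. In miR-214-3p the most frequent end held 60.9% and 60.5%, and the end 1 base upstream 38.5% and 38.9%. The median share of the most frequent end over 104 other arms was 99.1% in WT and 99.0% in KO, and the 10th percentile was 72.7% and 73.0%, so that miR-214-3p was among the less uniform arms.

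The shifted ends carried other seeds than the annotated strand. The most abundant sequences with such an end are shown with the seed in capitals, for comparison with the annotated sequences above.
miR-199-3p, 1 base upstream: uACAGUAGucugcacauugguu
miR-199-3p, 1 base downstream: cAGUAGUCugcacauugguu
miR-214-3p, 1 base upstream: uACAGCAGgcacagacaggcagu
miR-214-5p, 1 base downstream: gCCUGUCUacacuugcugugc
They had 1746, 1099, 517 and 42 reads in WT and 1769, 1105, 501 and 54 in KO. Their KO/WT ratios were 0.998 (0.934 to 1.07), 0.990 (0.910 to 1.08), 0.955 (0.842 to 1.08) and 1.27 (0.831 to 1.94), in the same order. A second sequence with the downstream end of miR-199-3p, longer by 1 base, had 704 and 813 reads and a ratio of 1.14 (1.03 to 1.26), and all reads with that end together had a ratio of 1.04 (0.976 to 1.11).

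**Figure D3:**
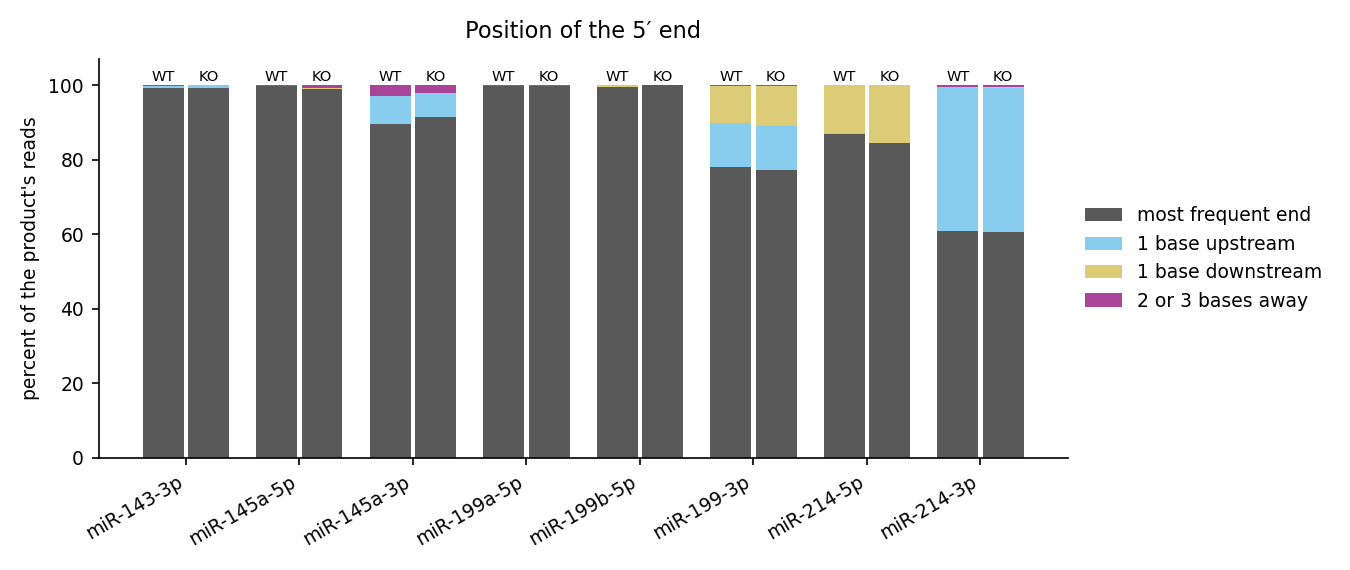
Share of each product's reads, in percent, by the position of the 5′ end relative to the most frequent end of the product, for the WT and KO library. The bars of WT and KO are alike for every product; miR-214-3p (38.5% and 38.9% 1 base upstream) and miR-199-3p have the least uniform ends.

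The length of the reads also differed between products more than between libraries. miR-199a-5p reads had 23 nt in 85.5% of WT and 85.9% of KO reads. miR-143-3p was shorter, with 48.6% and 49.3% of its reads at 20 nt and 41.2% and 40.4% at 21 nt. miR-199-3p was mostly 21 nt long (54.4% in each library) and miR-214-3p 22 nt (60.6% and 58.7%). The higher count of miR-199a-5p in KO was found at the lengths that held most reads, with ratios of 1.37 (1.247 to 1.51) at 21 nt, 1.47 (1.42 to 1.53) at 22 nt, 1.48 (1.46 to 1.499) at 23 nt and 1.33 (1.21 to 1.47) at 24 nt. At 20 nt, with 214 and 217 reads, the ratio was 0.999 (0.823 to 1.21). For miR-143-3p the ratios at 19, 20, 21 and 22 nt were 0.848, 0.824, 0.794 and 0.810.

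Terminal transferases can add bases to the 3′ end of a microRNA after it is cut. Reads that matched a hairpin exactly over at least 16 nt and then ended in 1 to 3 other bases were counted as tailed. They made up 23.6% of the members' exact and tailed reads in WT and 22.1% in KO, against 11.1% in each library for all other hairpins. The members' share was pooled by read and so depends on the mix of products. miR-143-3p gave 123098 of these 203390 reads in WT and 101645 of 206316 in KO. By product, the tailed share ran from 8.87% in miR-214-5p to 33.7% in miR-214-3p in WT, and from 6.99% to 33.7% in KO. In miR-143-3p 27.3% and 27.5% of the reads were tailed, and 95.3% and 95.4% of these tails consisted of U alone. The most frequent form was the 21-nt sequence followed by a single U, with 26286 reads in WT and 21750 in KO. In the other hairpins 32.6% and 32.3% of the tails were U alone and 40.1% and 40.8% A alone. These hairpins were pooled by read. The exact reads of the Mir10b 5p arm alone, 1410115 in WT and 1414835 in KO, were a large part of the pool. The pooled shares therefore do not show the spread between microRNAs.

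The nearly identical miR-199a-5p and miR-199b-5p differed in their tails. Tailed reads were 18.5% of miR-199a-5p and 32.2% of miR-199b-5p in WT (Fisher's exact test, adjusted p = 1.39e-18 over 10 comparisons), and 16.6% and 30.1% in KO (adjusted p = 1.35e-22). In both, a single U after the 23-nt form was the most frequent tail, with 7612 and 9929 reads of miR-199a-5p and 230 and 243 reads of miR-199b-5p. Between the genotypes, the tailed share of miR-199a-5p was lower in KO (adjusted p = 4.27e-17), and none of the other 7 products passed the test. With tailed reads included, the KO/WT ratio of miR-199a-5p was 1.44 (1.43 to 1.46) and that of miR-143-3p 0.814 (0.808 to 0.821). miR-214-3p was tailed as often in both libraries (33.7% and 33.7%), with A alone in 47.7% and 48.6% of its tails. A base that the sequencer or the adaptor clipping left at the end would be counted as a tail too, and its share was not tested.

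**Figure D4:**
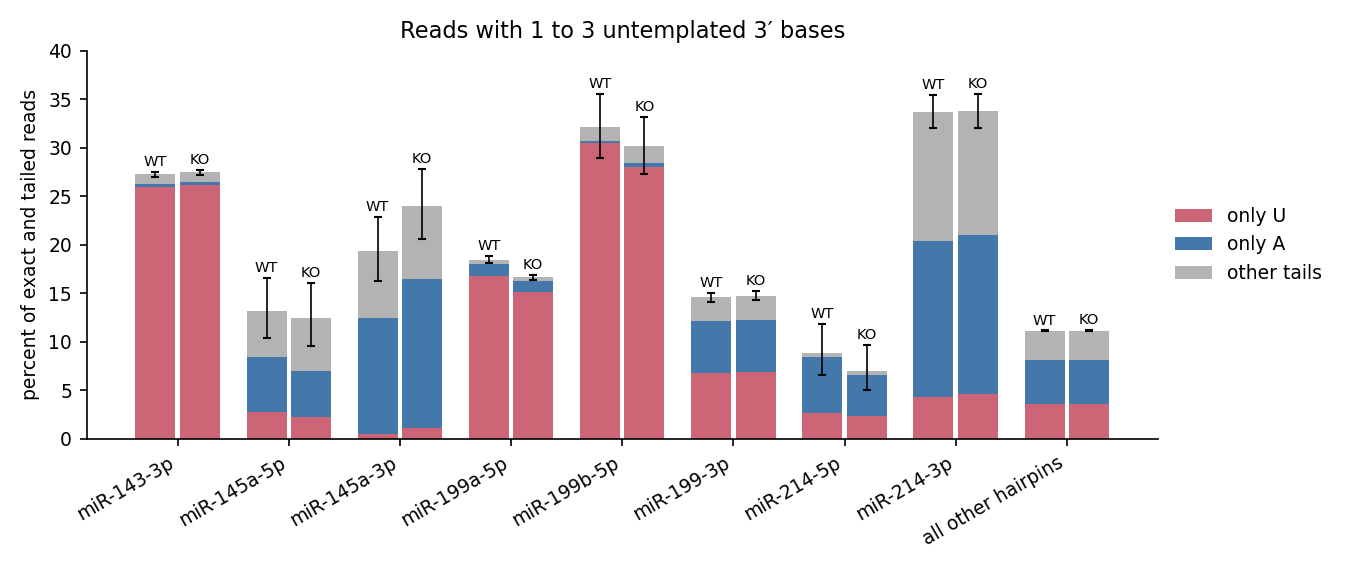
Percent of exact and tailed reads that end in 1 to 3 untemplated bases, by product and library, split into tails of U alone, A alone and others, with 95% Wilson intervals of the sum. miR-143-3p and both miR-199 5p strands carry mainly U, and both strands of miR-145a and of miR-214 more A than U. The other hairpins, pooled by read and with Mir10b as a large part, have 11.1% tailed reads in each library.

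A whole testis holds many cell types, and fewer cells of a type and less RNA per cell cannot be told apart in such a library. Marker microRNAs of other cell types were summed to see what else differed. Over 298 hairpin genes with at least 100 reads, 24.8% were past the lower and 5.7% past the upper fold threshold in KO. The 74 lower genes became 19 when only hairpins named Mir were kept, and all marker genes have such names. Over the 117 genes with at least 1000 reads, 1.71% were lower and 5.98% higher. The 12 other microRNAs abundant in fibroblasts and smooth muscle, such as Mir22 and Mir27b, gave 30163 RPM in WT and 30631 RPM in KO. The ratio of this sum was 1.02 (1.01 to 1.03), and none of the 12 was past either threshold. The sum hid differences in either direction, with Mir22 at 0.919 (0.905 to 0.933) and Mir27b at 1.12 (1.10 to 1.14). The median log2 ratio of the 12 was 0.13, against -0.07 over the 298 genes and -0.03 over the 117. All 12 were found with at least 100 reads, but a whole-testis library does not show which cells a read came from. Mir126a, the marker of endothelium, had 5133 and 5147 RPM, a ratio of 1.003 (0.979 to 1.03) that was 1.17 with the whole-library scaling, 1.06 by median of ratios and 1.04 by TMM. The gonadal support cell markers Mir202 and Mir140 together had a ratio of 1.06 (1.03 to 1.098).

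The marker lists of other cells differed in either direction. The germ cell list, the miR-290 and miR-302 families, had 803 RPM in WT and 1040 RPM in KO, a ratio of 1.30 (1.22 to 1.37). Of its 14 genes 5 had at least 100 reads, 3 of them (Mir291a, Mir293 and Mir295) past the upper threshold, and Mir290b, Mir292b, Mir302c and Mir367 were at 0 in both libraries. The blood list had 757 and 615 RPM, a ratio of 0.812 (0.759 to 0.869). Among its 4 genes with at least 100 reads, Mir144, at 0.575 (0.418 to 0.786), and Mir223, at 0.796 (0.585 to 1.08), were past the lower threshold. Per 1000000 reads of the whole library the ratio of the blood list was 0.946 (0.884 to 1.01, exact binomial p = 0.103). The epithelial list, mainly the miR-200 family, had 132 and 114 RPM, a ratio of 0.858 (0.731 to 1.01), and it was 0.999 with the whole-library scaling. Of its 3 genes with at least 100 reads, Mir200a, at 0.715 (0.476 to 1.07), and Mir200b, at 0.728 (0.572 to 0.926), were past the lower threshold. The third, Mir429, was at 1.03, and of the rarer ones Mir141 was at 1.52 (0.885 to 2.65) and Mir200c at 0.985. The striated muscle list had only 51 and 45 reads, with Mir206 at 0. The part of such markers in the members' ratios was not tested.

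**Figure D5:**
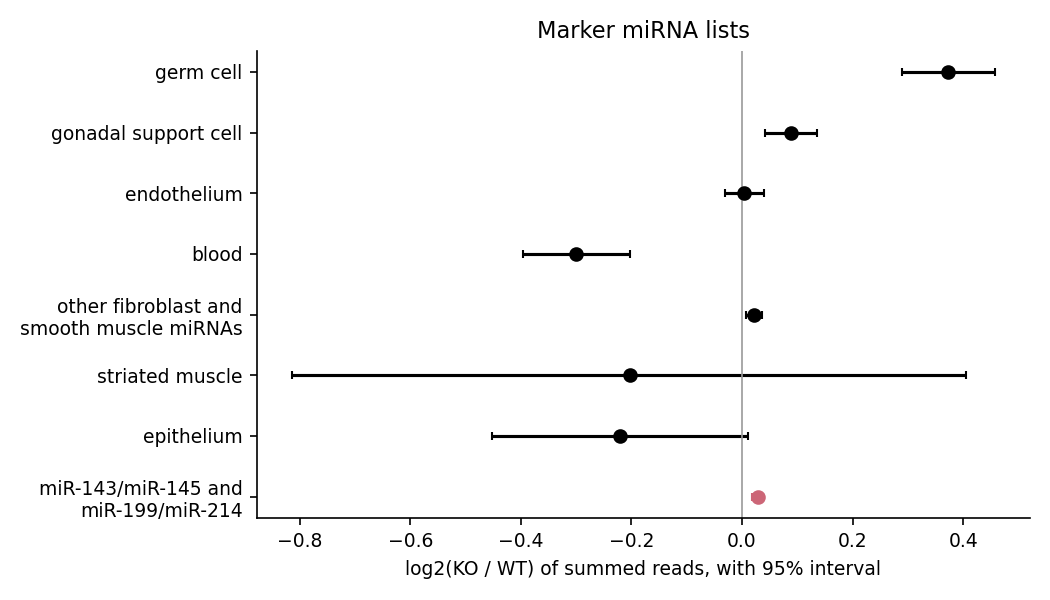
Log2 KO/WT ratio of the summed reads of each marker list, per 1000000 hairpin reads, with 95% Clopper-Pearson intervals that cover counting error only. The germ cell list lies to the right (1.30) and the blood list to the left (0.812). The other fibroblast and smooth muscle microRNAs and the 6 members both sum to 1.02, each over single microRNAs that differ in either direction. With the whole-library scaling the interval of the blood list takes in 0. The endothelial value falls on the other side of 0 when Mir10b is left out of the total, and the striated muscle value when the whole library is the total.

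Only few of the members' reads lay away from the mature strands. Reads in a hairpin but outside these ends numbered 102 in WT and 98 in KO, mostly of Mir214, and 1 read in WT and 0 in KO was antisense to a hairpin. The 3 other hairpin genes with at least 1000 reads whose log2 ratio was nearest to that of the 6 hairpins together were Mir300, Mir151 and Mir30a, each with a ratio of 1.02, among 111 genes compared over the 2 libraries.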

How the data were processed

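Small RNA of 20 pooled testes per genotype was prepared with the TruSeq Small RNA kit and sequenced on a MiSeq. Per the study's methods the authors clipped the adaptor and kept reads above 10 nt; mm9 is named in their processing notes. The deposited tables give each distinct sequence with its read count, which is not normalized. From these counts, reads of at least 16 nt were matched without mismatch, sense strand only, to the miRNA transcripts of GENCODE M21 (GRCm38), and no coordinates were converted. Reads shared by the miR-199 genes were kept as 1 product, and for single genes split equally. KO/WT ratios per 1000000 hairpin reads were tested with the exact conditional binomial test and 95% Clopper-Pearson intervals (scipy 1.17.1), with Benjamini-Hochberg adjustment over 327 arms; shares have Wilson intervals, and shares and pairs were compared with Fisher's exact test, two-sided. PCR reads without molecular identifiers are not independent molecules, so intervals cover counting error only. The ratio code was checked on simulated reads drawn with counting error only, which does not cover PCR duplication or the spread between libraries. TMM was computed with edgeR 4.0.16. Named besides the members were the marker lists and the 3 genes nearest in log2 ratio. The members and lists were chosen with earlier results of these data known.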

Additional observations from a re-analysis of the deposited data

How the results depend on the processing

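Each genotype had 1 library, so leaving out a replicate was not possible and the spread between animals is unknown. No paired analysis was possible because the groups share fewer than 2 replicate numbers. The alternatives with tailed reads, without the top sequence and with only hairpins named Mir were chosen after seeing the data.

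In the whole-library scaling, which moves every log2 ratio by 0.22, the ratio was 1.001 for miR-145a-5p, 1.06 for miR-145a-3p, 1.14 for miR-199-3p, 1.22 for miR-214-5p, 1.097 for miR-214-3p, 1.03 for Mir145a, 1.16 for Mir199b, 1.12 for Mir214 and 1.01 for the striated muscle list. Per 1000000 reads of 20 to 23 nt it was 0.868 for miR-145a-5p, 0.984 for miR-199-3p and 1.003 for Mir199b. Without Mir10b in the total it was 1.005 for all 6 hairpins, 0.928 for miR-214-3p and 0.988 for the endothelial list. By median of ratios it was 0.906 for miR-145a-5p, 1.03 for miR-199-3p, 1.05 for Mir199b and 1.01 for Mir214, and by TMM 0.893, 1.01 and 1.03 for the first 3 of these. With each distinct sequence counted once, which leaves few counts, it was 1.15 for all 6 hairpins, 0.992 for miR-143-3p, 1.52 for miR-145a-5p, 1.30 for miR-199a-5p, 0.827 for miR-199b-5p, 1.28 for miR-199-3p, 1.18 for miR-214-3p, 1.08 for Mir143, 1.07 for Mir145a, 1.03 for Mir199b, 1.21 for Mir214, 1.62 for the striated muscle list and 1.05 for the epithelial list, and the 5p share of the miR-199 hairpins was 56.6% in WT and 53.7% in KO. Reads of 20 to 24 nt gave 0.926 for miR-214-3p. Reads that lie in 1 gene gave 0.954 (0.660 to 1.38) for Mir199a-2, from 63 WT and 61 KO reads that were mostly 3p. For Mir199b such reads, all 5p, gave 1.21 (1.08 to 1.36). All 6 hairpins had 1.005 with up to 1 mismatch and 1.0003 with tailed reads, where miR-214-3p had 0.944. Without the most abundant sequence the ratio was 1.06 for miR-145a-5p, 1.204 for miR-199b-5p and 0.987 for miR-199-3p. Each scaling moves every log2 ratio by the same amount, 0.07 for median of ratios and 0.05 for TMM, so a ratio near 1 can turn by this shift alone. Where a direction turned with another alternative, the cause was not tested.

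The number of arms past the fold threshold, 58 lower and 19 higher, was 32 and 79 with the whole-library scaling, and 33 and 29 were higher by median of ratios and TMM. It was 5 and 5 at a minimum of 1000 reads, 207 and 92 at a minimum of 10, 29 and 2 at a fold of 1.5, and 30 were lower among hairpins named Mir. For hairpin genes, 74 lower and 17 higher, it was 68 higher with the whole-library scaling, 2 and 7 at 1000 reads, 190 and 66 at 10 reads, 0 higher at a fold of 1.5 and 19 lower among those named Mir. Of 287 results under an alternative, 188 were counted as the same. For a ratio this meant the same direction and the same side of 0.05 for the exact binomial p. For a share it meant a value inside the interval of the main result, and for a count a value within 1.5-fold of it.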
